A study of Mus musculus with 53 samples.

Results

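The Sox2 locus was examined as the Sox2 gene body (GENCODE ENSMUSG00000074637, plus strand, chr3:34650405-34652461 in mm10) with 130 kb on each side, a window of 262057 bp. All peaks of the deposited lists that overlap this window were taken, which gave 599 peaks of 35 libraries out of 1997019 in all. The study used CUT&RUN, in which an antibody tethers micrococcal nuclease to chromatin and the released DNA is sequenced, to map SOX2, GATA6, H3K27ac and H3K4me1 in mouse embryonic stem cells (ESCs). The cells were SGGC lines, 129/Ola ESCs in which the endogenous SOX2 is fused to GFP and GATA6 to mCherry, so the gene examined here also carries the reporter used for sorting in all groups. Clones B9 and B12 were used with their resistance cassettes in place. Cells in 2iLIF (a MEK inhibitor, a GSK3 inhibitor and LIF), in NACL (Activin A, a GSK3 inhibitor and LIF) and naive endoderm (nEnd), a culture model of the primitive endoderm (PrE), came from both clones, except that both nEnd H3K4me1 libraries came from B9. Cells in KnockOut Serum Replacement medium (KOSR), all of clone B12, were sorted into SOX2-GFP single positive (SOX2+) and SOX2-GFP, GATA6-mCherry double positive (DP) populations. Their titles begin with A, A1 or B, and libraries that share a prefix are here called an experiment, a term the labels do not use. There were 10 libraries of SOX2, from all populations but nEnd, and 5 of GATA6, from DP and nEnd cells. Each histone mark had 9 libraries with a clear label, of which 1 was from DP cells.

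Sox2 encodes a transcription factor of the epiblast and of pluripotent cells, where it acts with OCT4 and NANOG and binds control elements of its own gene. GATA6 drives the PrE. In ESCs much of the expression of Sox2 depends on a cluster of elements far downstream of the gene, the Sox2 control region, while an element just 3' of the gene, known as SRR2, binds SOX2 with OCT4. H3K4me1 marks enhancers, primed or active, and H3K27ac marks active ones. Sites are named here by the distance of their strongest point from the Sox2 start site, and the stretch of 15 kb that begins 100 kb downstream is called the distal control region (chr3:34750405-34765404).

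The sequences under the sites on which the results turn are shown first. Each is the 200 bp of the plus strand of mm10 centred on the strongest point of the strongest peak, that of GATA6 at the +32.9 and +103.3 kb sites and of SOX2 at the other sites. Capitals mark matches on either strand to the SOX strings CATTGT and CTTTGT and to the GATA strings AGATAA and TGATAA. The OCT strings ATGCAAAT and ATGCTAAT were also searched, and neither string occurs in these 6 windows. Genome-wide, an OCT string lies in 8.73% of the windows of SOX2 regions and in 3.76% of those of GATA6 regions. Only exact strings were searched, so other forms of an OCT site would be missed.
+3.7 kb site, chr3:34653956-34654155: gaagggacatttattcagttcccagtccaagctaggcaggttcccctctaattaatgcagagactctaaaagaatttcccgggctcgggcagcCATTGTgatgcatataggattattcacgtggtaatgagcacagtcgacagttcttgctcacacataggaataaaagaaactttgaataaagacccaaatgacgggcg
+32.9 kb site, chr3:34683227-34683426: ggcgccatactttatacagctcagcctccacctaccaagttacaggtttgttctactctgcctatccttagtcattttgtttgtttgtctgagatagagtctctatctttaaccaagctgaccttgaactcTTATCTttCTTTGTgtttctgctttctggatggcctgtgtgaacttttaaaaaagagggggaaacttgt
+95.0 kb site, chr3:34745276-34745475: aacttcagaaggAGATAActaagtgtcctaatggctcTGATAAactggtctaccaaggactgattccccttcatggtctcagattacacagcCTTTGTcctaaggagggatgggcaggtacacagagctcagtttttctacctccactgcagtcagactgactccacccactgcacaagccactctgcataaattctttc
+103.3 kb site, chr3:34753627-34753826: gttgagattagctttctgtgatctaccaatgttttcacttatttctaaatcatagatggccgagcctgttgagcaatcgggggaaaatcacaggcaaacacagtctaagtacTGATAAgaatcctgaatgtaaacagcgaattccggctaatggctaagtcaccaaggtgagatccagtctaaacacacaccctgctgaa
+107.7 kb site, chr3:34757974-34758173: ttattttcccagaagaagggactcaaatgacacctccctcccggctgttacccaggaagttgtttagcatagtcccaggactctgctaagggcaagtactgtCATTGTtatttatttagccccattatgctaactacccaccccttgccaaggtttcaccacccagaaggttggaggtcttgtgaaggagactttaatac
+111.1 kb site, chr3:34761398-34761597: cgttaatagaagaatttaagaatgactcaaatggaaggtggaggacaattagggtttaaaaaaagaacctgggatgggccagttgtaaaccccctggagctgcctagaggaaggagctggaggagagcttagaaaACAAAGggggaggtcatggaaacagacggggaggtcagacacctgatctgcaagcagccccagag

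A SOX string lies in the +3.7, +95.0, +107.7 and +111.1 kb windows, against 63.9% of the windows of all 39917 SOX2 regions of the genome. The +107.7 kb window, that of the distal site found in all SOX2 libraries, holds CATTGT beginning at base 103, next to its centre. The +95.0 kb window holds 2 GATA strings, AGATAA at base 13 and TGATAA at base 38, and CTTTGT at base 93. A GATA string lies in 20.1% of the SOX2 windows of the genome and in 72.3% of those of the 39910 GATA6 regions. The +32.9 kb window holds TTATCT, the reverse complement of AGATAA, at base 132 and CTTTGT at base 140. The +103.3 kb window holds TGATAA and no SOX string, while 44.3% of GATA6 windows hold a SOX string. A match is a string of letters and was not tested as a binding site.

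The 10 SOX2 libraries had 107 peaks in the window, which merged into 24 regions of 175 to 933 bp, and 7 of these rested on 1 library. The gene body and the sites from -99.7 to +29.3 kb lie within Sox2ot, a non-coding transcript that overlaps Sox2 on the same strand. Within it the -91.1, -74.4, +3.7 and +18.2 kb sites are intronic and the +5.9 and +15 kb sites exonic. The sites from +32.9 to +116.7 kb are intergenic. At the promoter itself (-0.4 kb), SOX2 had a peak in NACL B9 alone.

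**Figure D1:**
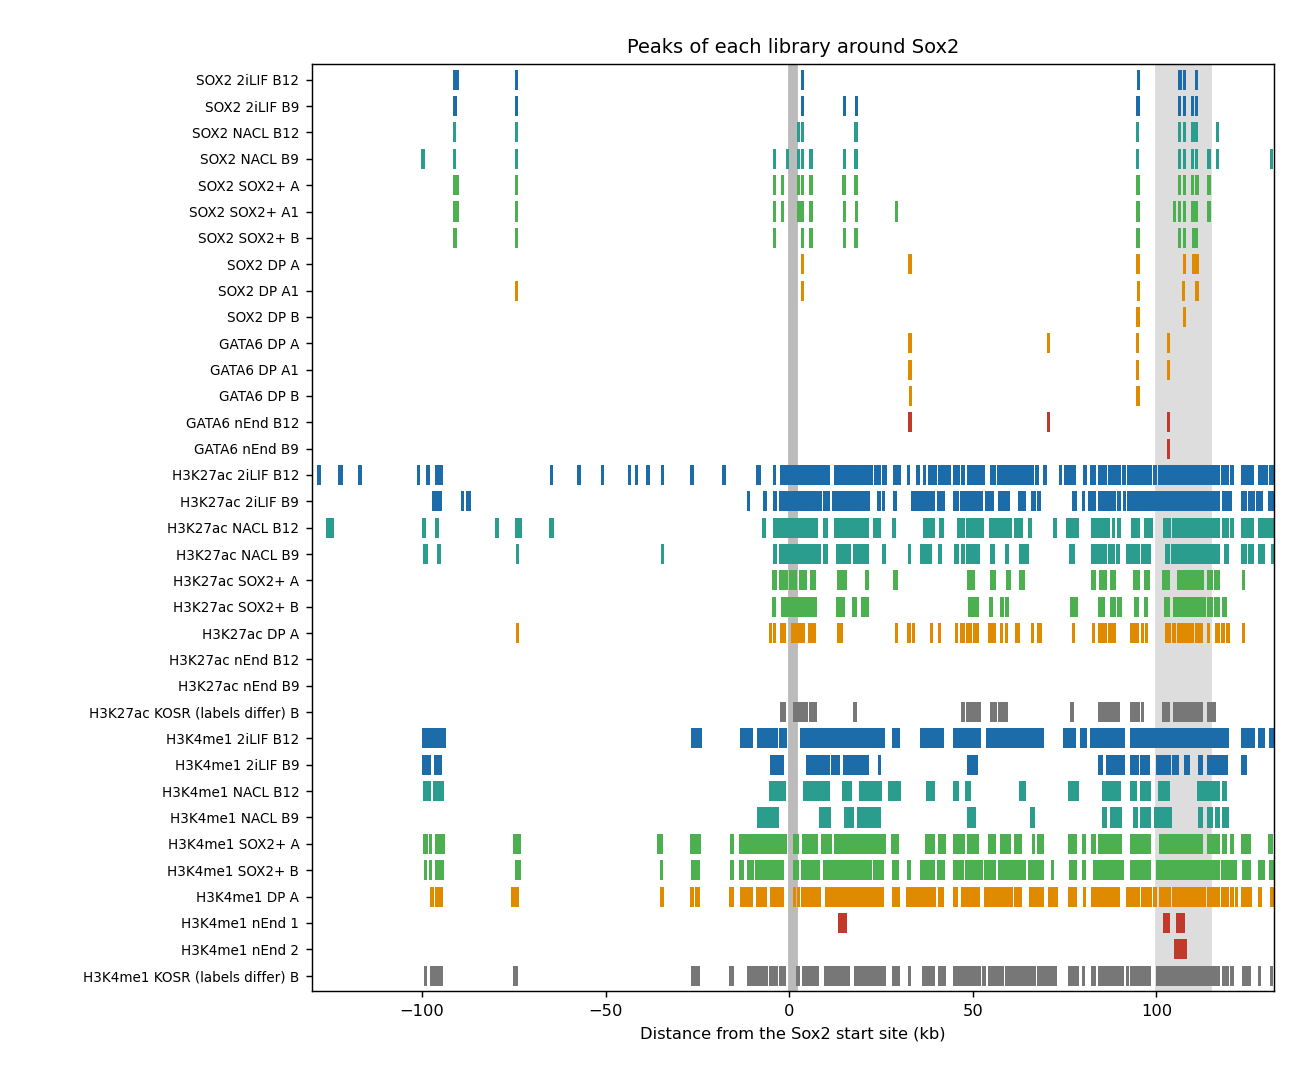
Peaks of each of the 35 libraries (rows, coloured by population) by distance from the Sox2 start site in kb, with the gene body in dark grey and the distal control region in light grey; peaks narrower than 0.9 kb are drawn at that width. SOX2 peaks recur at +95.0 and +107.7 kb in all 10 SOX2 libraries, and both nEnd H3K27ac libraries are empty.

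SOX2 occupied the distal control region in every population in which it was mapped. The +95.0 kb site, just before that region, and the +107.7 kb site within it had a peak in all 10 SOX2 libraries. These 2 of the 24 regions stand beside 2.76% of SOX2 regions genome-wide that were found in all 10 libraries. The +111.1 kb site had a peak in 9 libraries, all but DP B, and the +106.3 kb site in the 7 non-DP libraries and in no DP library. The +3.7 kb site, just past the end of the gene, was also found in 9 libraries and not in DP B.

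DP cells had fewer SOX2 peaks at the locus, with 6 in experiment A, 5 in A1 and 2 in B. SOX2+ cells of the same experiments had 16, 19 and 12, NACL cells 18 and 11 and 2iLIF cells 10 and 8. The DP lists as a whole were shorter as well, with 4859, 5320 and 1378 peaks, against 16819, 20609 and 10513 in SOX2+ cells. Per 1000 peaks of its list, a DP library had 1.23, 0.940 and 1.45 peaks in the window and a SOX2+ library 0.951, 0.922 and 1.14. DP was above SOX2+ in each of the 3 experiments (exact sign-flip test, p = 0.25, the smallest that 3 pairs allow), while the shares of the populations overlapped (mean 1.21 ± 0.257 and 1.005 ± 0.119, SD, n = 3 each, two-sided exact permutation test, p = 0.3). The difference, 0.204, was 0.0824 without DP B and 0.338 without DP A1. When only the 1378 strongest peaks of each list were kept, it changed sign, to -0.726 (exact permutation test, p = 0.3). The share per 1000 peaks was chosen after seeing the data.

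Of the 24 SOX2 regions, 4 had a peak in at least 2 of the 3 DP libraries, namely +3.7, +95.0, +107.7 and +111.1 kb, against 8.91% of SOX2 regions genome-wide. Without DP A or without DP A1 the count was 2. SOX2+ cells had 12 regions with a peak in all 3 libraries, and 6 of these had no peak in any DP library: the sites at -91.1, -4.0, +5.9, +15, +18.2 and +106.3 kb. Genome-wide, 52.9% of the SOX2 regions with a peak in all 3 SOX2+ libraries had none in DP, so 6 of 12 is close to that share. DP cells alone had 1 of the 24 regions, against 2.49% of SOX2 regions genome-wide. It lay at +32.9 kb, where SOX2 had a peak in DP A with 6 as its max signal, the 3663rd of 4859.

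The strength of a peak was expressed as its percentile, the share of peaks of the same list with a lower max signal. Max signal is coverage on the scale of its own library, so the raw values were not compared across libraries, and a site with no peak was given 0. In the distal control region, the strongest SOX2 peak stood at 93.5, 95.2 and 91.1 in SOX2+ A, A1 and B, each time at +107.7 kb. In DP A, A1 and B it stood at 47.8, 78.9 and 38.8, at +107.7 kb in A1 and B and tied between +107.7 and +111.1 kb in A. In 2iLIF B9 and NACL B9 and B12 the strongest peak lay at +111.1 kb instead, at 90.6, 96.0 and 90.1, with +107.7 kb at 85.7, 93.1 and 86.6. In 2iLIF B12 both sites stood at 85.0. All 3 DP libraries were below all 7 others. Theirs were also the shortest SOX2 lists, so these percentiles do not by themselves show less binding. Nor can fewer cells with a bound site and less binding per cell be told apart in such pools of cells.

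The mean percentile was 55.2 ± 21.01 in DP and 93.3 ± 2.03 in SOX2+ (SD, n = 3 each), a difference of -38.1. The exact permutation test gave p = 0.1, the smallest value that 3 against 3 libraries allow. Against all 7 pluripotent libraries (91.6 ± 3.72) the difference was -36.5, with p = 0.0167 in the exact permutation test, again the smallest possible. That test takes no account of the experiments that DP and SOX2+ share. With DP and SOX2+ exchanged only within each experiment, an alternative added after seeing the data, the exact permutation p was 0.25, the smallest that 3 pairs allow. With the strongest 1378 peaks of every list, these differences were -7.86 (exact permutation test, p = 0.6) and 2.55 (p = 0.8, so the direction turned). NACL B12 and DP A then had no distal peak left, and the others stood between 10.5 and 38.8. Leaving out any 1 DP library took p to 0.0556, the smallest that 2 against 7 allow.

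The ranks behind these percentiles overlapped between the populations. The strongest distal peak ranked 1048th, 922nd and 886th in SOX2+ A, A1 and B, and 2110th, 1017th and 699th in DP A, A1 and B. In the other libraries it ranked between the 1157th and the 1581st. Thus DP B held the best rank and the lowest percentile.

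The max signal at +107.7 kb, each on the scale of its own library, was 43, 38 and 31 in SOX2+ A, A1 and B and 9, 22 and 11 in DP A, A1 and B. In 2iLIF it was 48 (B9) and 34 (B12), and NACL had 66 (B9) and 24 (B12). Low whole numbers such as these tie with many other peaks of the same list.

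**Figure D2:**
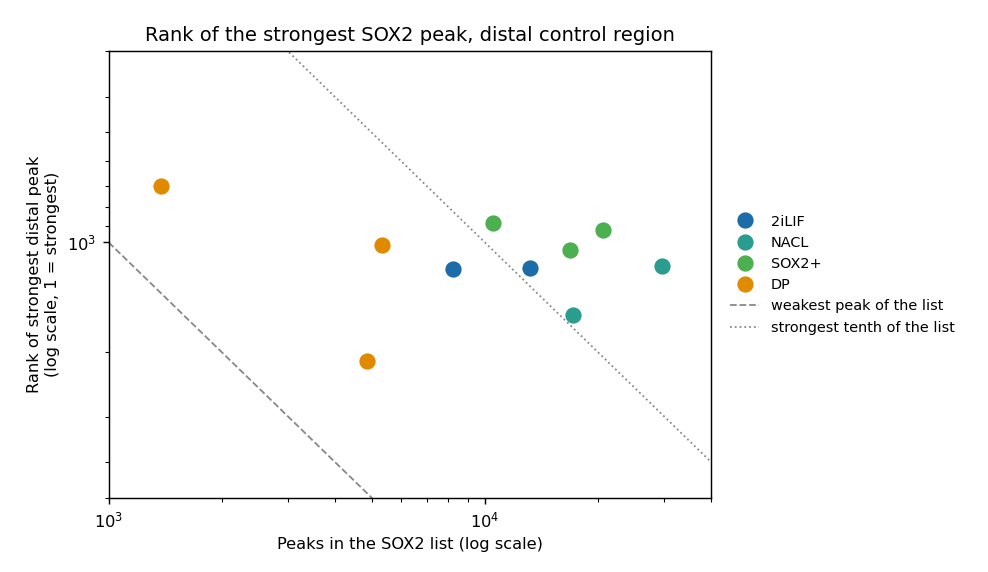
Rank of the strongest SOX2 peak of the distal control region (log scale, 1 is the strongest) against the number of peaks in the list (log scale), 1 point per library. Ranks of all libraries lie between 699 and 2110, while the lists run from 1378 to 29623 peaks.

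A lower percentile in DP was found for most genes. Over the whole window, the strongest SOX2 peak stood at 70.1, 78.9 and 38.8 in DP and at 96.8, 97.7 and 92.8 in SOX2+ (means 62.6 ± 21.05 and 95.8 ± 2.61, exact permutation test, p = 0.1). The same order in each of the 3 experiments was found for 65.4% of 19178 protein-coding genes, each with 130 kb on each side, and their median difference was -35.0, beside -33.2 for Sox2. The Sox2 value was -21.3 without DP B and -57.0 with 50 kb on each side. Of 16 other genes of the pluripotency network, 14 were lower in DP in each experiment, 0 were higher in each, and the median was -33.5. Tfcp2l1, a naive pluripotency factor, differed by -72.4, from 91.1, 73.2 and 79.4 in SOX2+ to 24.6, 1.84 and 0 in DP. Utf1, a chromatin factor of ESCs and a known SOX2 target, differed by -67.3 and had no DP peak. Prdm14, a repressor that guards naive pluripotency, differed by -65.3. Sall4 and Tbx3 were not lower in each experiment.

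The other main sites of the window were compared in the same way. At +3.7 kb, SOX2+ A, A1 and B stood at 96.8, 97.7 and 92.8, the strongest SOX2 peak of the whole window in each. DP A stood there at 70.1 and DP A1 at 46.4, and DP B had no peak. This difference, -57.0 (exact permutation test, p = 0.1), was -57.3 with the 1378 strongest peaks (p = 0.1). With those peaks the site was kept in SOX2+ A, A1 and B, in DP A, 2iLIF B12 and NACL B9. It was lost in DP A1 and B and also in 2iLIF B9 and NACL B12, so the contrast is with SOX2+ alone. At +95.0 kb, SOX2+ stood at 72.1, 89.4 and 79.4 and DP at 36.6, 70.5 and 12.1, a difference of -40.5 that became 4.04 with equal peak numbers (exact permutation test, p = 1). At +111.1 kb, SOX2+ stood at 91.1, 94.3 and 83.9, DP A at 47.8, DP A1 at 39.5, and DP B had no peak. That difference went from -60.6 (exact permutation test, p = 0.1) to -4.77 (p = 1) with equal peak numbers. Without DP B, the differences were -37.6 at +3.7 kb and -26.7 at +95.0 kb. Whether the sites differ from each other in these changes was not tested.

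The 4 remaining SOX2 sites of the distal control region stood below +107.7 kb in each library with a peak there. At +106.3 kb, SOX2 stood at 61.5 and 49.5 in 2iLIF, 76.03 and 66.96 in NACL (B9 first) and 40.8, 66.7 and 4.90 in SOX2+ A, A1 and B. At +110.1 kb, it stood at 5.48 in 2iLIF B9, at 66.4 and 28.01 in NACL, at 57.2, 42.7 and 20.5 in SOX2+ and at 13.2 in DP A. No peak lay there in 2iLIF B12, DP A1 or DP B. At +114.4 kb, SOX2+ A and A1 stood at 24.7 and 66.7 and NACL B9 at 24.9, and the other libraries had no peak. At the last of these sites, between +103.3 and +106.3 kb, SOX2+ A1 alone had a peak, among the weakest of its list (percentile 0).

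Upstream of the gene, SOX2 recurred at -91.1 and -74.4 kb. The -91.1 kb site was called in the 7 non-DP libraries, at 72.2 and 63.9 in 2iLIF. NACL stood there at 47.0 and 18.7 and SOX2+ at 24.7, 57.5 and 4.90. No library of either histone mark had a peak over it. At -74.4 kb, SOX2+ stood at 74.1, 70.4 and 38.4, NACL at 47.0 and 28.01 and 2iLIF at 0.812 and 22.3, and of the DP libraries A1 alone had a peak, at 23.9.

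Within 6 kb of the start site, SOX2 peaks covered 14.3, 13.2 and 6.23% of the bases in SOX2+ A, A1 and B. They covered 1.94 and 2.26% in DP A and A1 and 0% in DP B, 3.45 and 2.28% in 2iLIF and 12.8 and 8% in NACL. The 2iLIF and DP peaks here were those of the +3.7 kb site alone, while all 3 SOX2+ libraries also had the -4.0 and +5.9 kb sites.

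**Figure D3:**
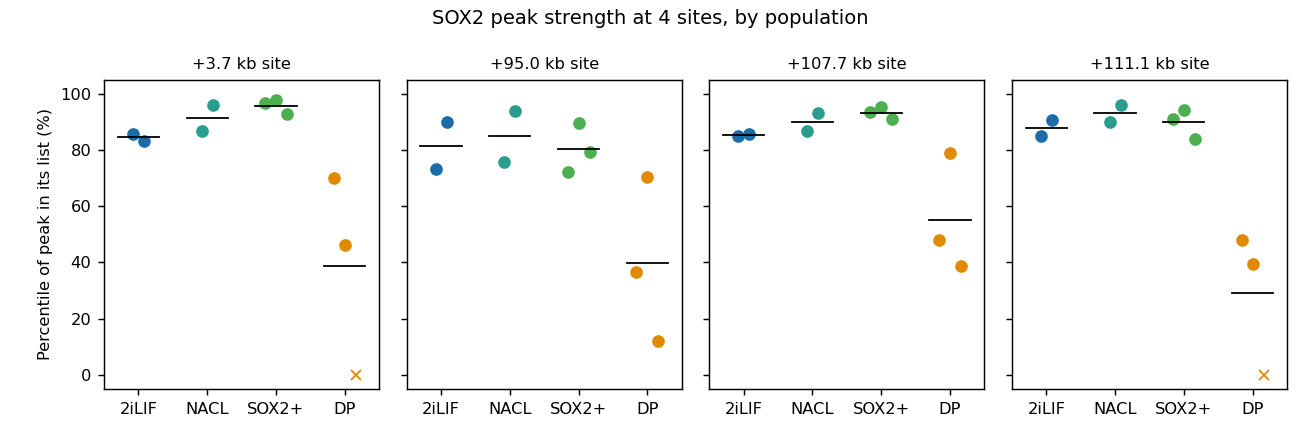
Percentile of the SOX2 peak within its own list at 4 sites, 1 point per library with the mean as a line; crosses are libraries with no peak, placed at 0. At each site the 3 DP libraries lie below the 3 SOX2+ libraries.

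SOX2 peaks covered 4.67, 6.79 and 1.61% of the bases of the distal control region in DP A, A1 and B. In SOX2+ cells they covered 14.9, 20.2 and 9.75%, in 2iLIF 16.7 and 10.7% and in NACL 20.8 and 15.6% (B9 first). DP and SOX2+ did not overlap (4.36 ± 2.60 and 14.96 ± 5.25, difference -10.6, exact permutation test, p = 0.1). The DP lists were shorter, and coverage was compared neither with equal numbers of peaks nor at other genes. In the inner 8 kb alone the difference was -17.7 (exact permutation test, p = 0.1).

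GATA6 had 13 peaks in the window, which merged into 4 regions, all downstream of the gene, at +32.9, +70.7, +95.0 and +103.3 kb. None lay at the gene itself or at +107.7 kb, the distal SOX2 site. Of these 4 regions, 3 had a peak in at least 2 DP libraries, against 8.66% of GATA6 regions genome-wide.

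At +95.0 kb GATA6 had a peak in all 3 DP libraries, at percentiles 79.1, 83.7 and 68.7 in A, A1 and B. There was no peak there in nEnd, although the nEnd lists held 24223 and 32510 peaks and the DP lists 8316, 3821 and 1391. Of the DP GATA6 regions genome-wide, 79.5% had a peak in an nEnd library, and 2 of the 3 in the window did. The +95.0 kb site was also the one region of the 4 DP SOX2 regions that overlapped a DP GATA6 region, against 27.9% of such SOX2 regions genome-wide. The strongest points of SOX2 and GATA6 there were 39, 39 and 42 bp apart in experiments A, A1 and B, and the peaks shared 195, 214 and 334 bp. Each time the GATA6 point lay on the gene's side of the SOX2 point, which is also the side of the 2 GATA strings. The libraries were made from separate antibodies, so binding to the same DNA molecule was not measured.

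At +32.9 kb GATA6 stood at 81.0, 56.9 and 68.7 in DP A, A1 and B, at 9.40 in nEnd B12 and had no peak in nEnd B9. At +103.3 kb, in the distal control region, it was low in all: 5.45 in DP A, 26.1 in DP A1, no peak in DP B, and 11.6 and 34.4 in nEnd B9 and B12. DP and nEnd overlapped at that site (difference -12.5, exact permutation test, p = 0.4). That value rested on single libraries, being -1.10 without nEnd B12, -23.9 without nEnd B9, -20.3 without DP A1 and -7.22 without DP B, and with equal peak numbers it was 0. SOX2 had no peak there in any library. At +70.7 kb GATA6 had a peak in DP A (51.0) and nEnd B12 (37.9) only.

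Over the whole window the strongest GATA6 peak stood at 81.0, 83.7 and 68.7 in DP A, A1 and B and at 11.6 and 37.9 in nEnd B9 and B12. The difference was 53.0 (77.8 ± 7.96, n = 3, and 24.7 ± 18.6, n = 2, exact permutation test, p = 0.2, the smallest that 3 against 2 allow). The DP libraries were all above both nEnd libraries, an order found for 1.37% of 19459 protein-coding genes with a GATA6 peak in reach. With the strongest 1391 peaks, DP A and both nEnd libraries had no peak in the window, DP A1 kept +95.0 kb and DP B kept +32.9 and +95.0 kb (difference 41.3, exact permutation test, p = 0.6).

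**Figure D4:**
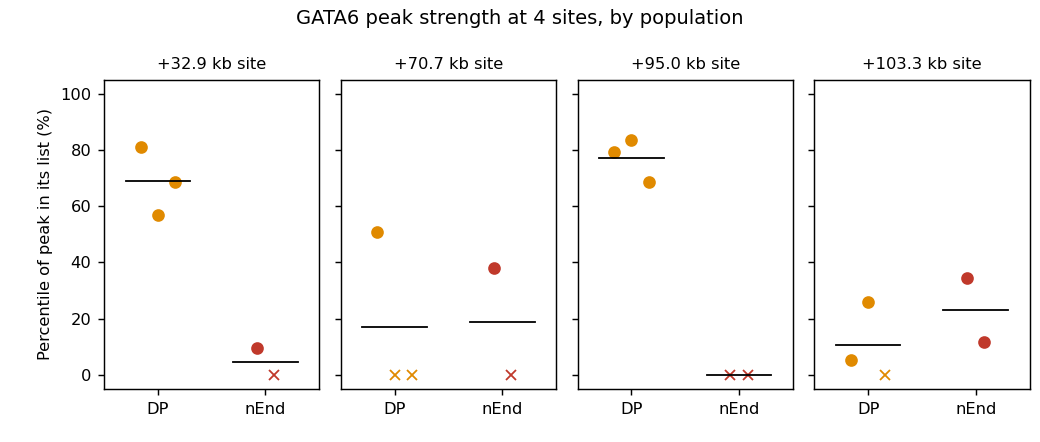
Percentile of the GATA6 peak within its own list at the 4 GATA6 sites, 1 point per library with the mean as a line; crosses are libraries with no peak, placed at 0. At +95.0 kb the DP libraries lie between 68.7 and 83.7 and both nEnd libraries have no peak.

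H3K27ac covered most of the distal control region in pluripotent cells and none of it in nEnd. Its peaks covered 98.9 and 96.7% of the bases in 2iLIF, 83.3 and 85.9% in NACL (B9 first) and 71.3 and 79.6% in SOX2+ A and B. Both nEnd libraries had 0 H3K27ac peaks in the whole window, with lists of 21394 and 20072 peaks, longer than the SOX2+ lists of 13514 and 14722. The 6 pluripotent libraries averaged 85.9% ± 10.5 (SD), and their difference from nEnd had p = 0.0714 (exact permutation test), the smallest that 6 against 2 allow. Of 13816 protein-coding genes with H3K27ac peaks in all 6 libraries, 3.46% lacked them in both nEnd libraries. The strongest peak of the distal region stood at the 95.1 to 99.7 percentile of the pluripotent lists.

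In DP cells the mark rests on 1 library. H3K27ac peaks of DP A covered 65.1% of the distal region, from a list of 76260 peaks, and its strongest distal peak stood at 98.3. The mark lay over the +3.7, +95.0, +103.3, +107.7 and +111.1 kb sites in all 6 pluripotent libraries and in DP A. At +32.9 kb, with GATA6 peaks in all 3 DP libraries, it was found in DP A, in 1 of 2 2iLIF and 1 of 2 NACL libraries and in neither SOX2+ library. The SOX2+ lists were far shorter than that of DP A (13514 and 14722 peaks), which limits what the absence there can mean. With 1 library for DP, no test was made.

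Near the start site, H3K27ac covered 81.95 and 77.3% of the bases within 6 kb in 2iLIF, 82.9 and 87.9% in NACL, 67.6 and 74.6% in SOX2+ and 63.0% in DP A. Over the whole window it covered 40.6 and 47.8% in 2iLIF, 30.6 and 38.2% in NACL, 16.6 and 17.8% in SOX2+ and 18.1% in DP A. The 2iLIF and NACL lists, of 210904 to 401853 peaks, were the longest of all. The distal region and the surroundings of the start site were the most covered stretches in SOX2+ cells, where the upstream stretch had 0 peaks.

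**Figure D5:**
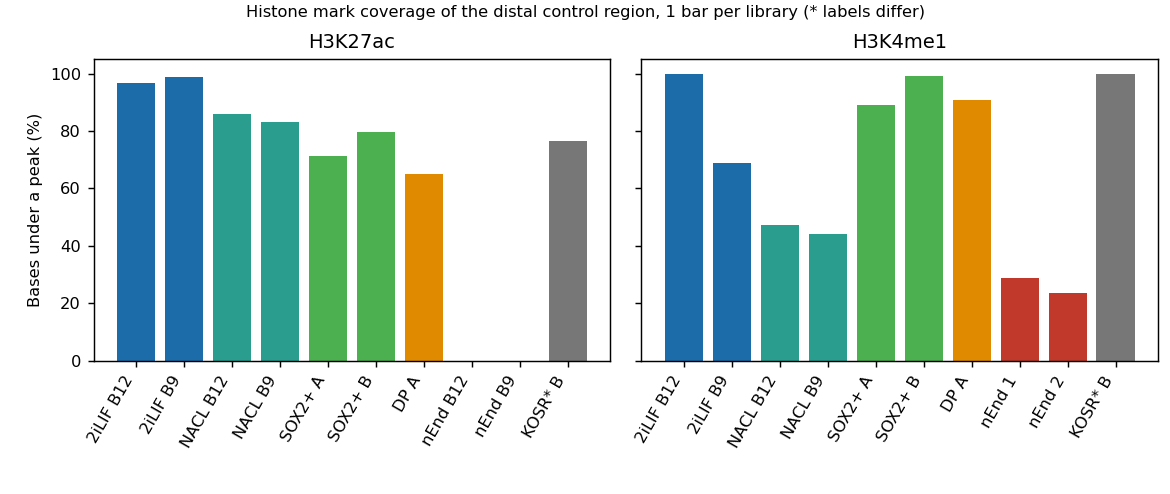
Percent of the bases of the distal control region under H3K27ac (left) and H3K4me1 (right) peaks, 1 bar per library, with the libraries of conflicting labels in grey. The nEnd bars are at 0 for H3K27ac and at 28.9 and 23.6% for H3K4me1.

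H3K4me1 peaks were also present in nEnd. They covered 28.9 and 23.6% of the distal control region in the nEnd libraries 1 and 2, in a stretch over the +106.3 and +107.7 kb sites in both and over +103.3 kb in library 1. Those peaks were weak, the strongest at percentiles 25.2 and 1.03 of their lists. The mark covered 68.9 and 100% in 2iLIF, 44.0 and 47.2% in NACL (B9 first), 89.1 and 99.04% in SOX2+ A and B and 90.8% in DP A. The pluripotent libraries (74.7% ± 25.2, SD, n = 6) were all above nEnd (26.2% ± 3.73, n = 2, exact permutation test, p = 0.0714). The share of other genes with that order was not computed. In the inner 8 kb alone the difference fell from 48.5 to 25.2 percentage points (exact permutation test, p = 0.571). There both nEnd libraries had a peak over the +106.3 and +107.7 kb sites, and neither NACL library did. Over the whole window H3K4me1 covered 21.6 and 47.9% in 2iLIF, 16.3 and 23.5% in NACL, 43.1 and 46.2% in SOX2+, 46.1% in DP A and 2.66 and 1.35% in nEnd. Outside the distal control region, the nEnd libraries had 1 peak between them, centred 14.5 kb downstream. In neither NACL library did H3K4me1 reach +107.7 kb, where both had H3K27ac and SOX2 peaks.

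The 5 protein-coding genes whose strongest peak varied most like that of Sox2 over the 15 SOX2 and GATA6 libraries were Immp2l (Pearson's r = 0.94), Wdr61 (0.94), Zswim5 (0.93), Zfp990 (0.92) and Crem (0.91), out of 20913 compared. The points of these correlations share libraries, 2 antibodies and list lengths, and no p was computed.

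Of the start sites of 5 pluripotency genes, H3K27ac peaks lay within 1 kb of 3 or 4 in each of the 6 pluripotent libraries and 4 in DP A, and of 3 (B12) and 2 (B9) in nEnd. Of 6 PrE genes, nEnd had 6 and 5, DP A had Gata6 and Pdgfra, 2iLIF B12 had Gata6, 2iLIF B9 had Pdgfra, and SOX2+ had 0. NACL B12 also had peaks at 5 PrE genes and at all 4 genes of other lineages, and NACL B9 at 2 and 3. Their part in the values of NACL was not tested.

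Histone libraries of KOSR experiment B, 1 for each mark, were set apart, since their titles name DP cells and their source names SOX2+ cells. The H3K27ac library had 15 peaks in the window out of 19185, and these covered 76.4% of the distal control region. Of the 6 PrE genes it had a peak at the start of 1, Gata6. The H3K4me1 library had 36 of 94492 and covered 100% of it. Both marks lay over the +95.0 and +107.7 kb sites in these libraries. At +32.9 kb the H3K4me1 library had a peak and the H3K27ac library had none.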

How the data were processed

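SOX2, GATA6, H3K27ac and H3K4me1 were profiled by CUT&RUN in SGGC ESCs. Per the submitters' processing notes, the authors used cutadapt 1.18, Bowtie2 2.3.4.1, SAMtools 1.9, Picard 2.9.1, bedtools 2.27.1, deepTools 3.2.0 and SEACR, which called peaks per library against IgG on mm10. The deposited lists give the total and the max coverage signal of each peak in whole numbers on the scale of its library. Many peaks tie, and read depth is unknown. The lists are named for SEACR's stringent mode for transcription factors and relaxed mode for histone marks, while the methods state the reverse. They held 1378 to 401853 peaks.

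Peaks overlapping the window by at least 1 bp were counted, ranked by max signal within their list, and merged across libraries of an antibody (Python 3.11.15, NumPy 2.4.6). Genes came from GENCODE M21. Libraries were compared with two-sided exact permutation tests (SciPy 1.17.1, threshold 0.05), tested on simulated data. The sources used here do not say whether libraries came from separate cultures, so p-values measure the spread between libraries. Experiment letters pair DP with SOX2+ libraries: deviations from the group means over 1196 shared SOX2 regions correlated at 0.19 (A), 0.25 (A1) and 0.29 (B). No 2 lists shared more than 0.290% of peak positions exactly.

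The window, sites, gene lists and tests were chosen with earlier results of these data known. The text names SOX2 or GATA6 sites with a peak in at least 2 DP libraries, along with others singled out after their values were seen, the 3 network genes of largest difference between DP and SOX2+, and the 5 genes most like Sox2. The alternatives were total signal, equal numbers of strongest peaks (1378 for SOX2, 1391 for GATA6), the inner 8 kb of the distal region, the position of the max signal, the stronger 50% of peaks, a larger overlap, other library counts, 50 kb on each side, other pluripotent groups, leaving out each library and a block for the experiment. The single-site comparisons and the share per 1000 peaks were added after seeing the data. The 2 libraries with conflicting labels entered no comparison, and 18 IgG samples were not used here. The NACL B12 SOX2 library was placed by its title, since its source name also gives IgG. The DP A GATA6 library is labelled sub02, a term the sources used here do not explain.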

Additional observations from a re-analysis of the deposited data

Results flagged for a closer look

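The 2 histone libraries of KOSR experiment B, whose labels name different sorted populations, entered no comparison but carry signal at the distal control region above that of the nEnd libraries of the same mark. H3K27ac peaks covered 76.4% of its bases in that experiment, within the range of the SOX2+ libraries (71.3 and 79.6%) and above DP A (65.1%) and nEnd (0 in both). H3K4me1 peaks covered 100%, beside 89.1 and 99.04% in SOX2+ cells, 90.8% in DP A and 28.9 and 23.6% in nEnd. These values do not tell which population the libraries hold.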

How the results depend on the processing

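For 14 of the 16 tested differences the smallest possible p is above 0.05, so an alternative can change their size or direction but not their call. Of 14 alternative values for the 2 counts of regions, 9 stayed within 1.5 times. GATA6 at +103.3 kb went to 0 with equal numbers of strongest peaks. With equal numbers of strongest peaks, 4 changed direction: the distal SOX2 percentile of DP against the other pluripotent libraries (2.55), SOX2 at +95.0 kb (4.04), and the peaks per 1000 against SOX2+ (-0.726) and against the other pluripotent libraries (-0.484). That setting removes the weaker peaks of the longer lists. The distal SOX2 percentile against the other pluripotent libraries lost its p of 0.0167 without any 1 DP library, with values from -48.3 to -28.3 where a DP library was left out. The count of SOX2 regions shared by DP libraries, 4, was 1 with the stronger 50% of the peaks, 7 with any DP library and 2 with all DP libraries, and ranged from 2 to 4 with 1 DP library left out. With experiment as a replicate block, the distal SOX2 difference between DP and SOX2+ of -38.1 had p = 0.25 in an exact sign-flip test, the smallest that 3 pairs allow. The difference of -36.5 from all 7 pluripotent libraries also had p = 0.25 (exact permutation test) once DP and SOX2+ were exchanged only within experiments, so its call was lost. Most designs here are too small to reach 0.05, so a p above it shows no lack of difference. The unknown read depth and the short DP lists limit what an absent peak can mean.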
